A study of Mus musculus with 4 samples.

Results

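The 32 genes described here are a set of type I interferon response genes, taken by symbol from count matrices that list 25636 genes. All 32 were found, and together they held 14503 of the 23922609 UMIs (unique molecular identifiers, each counting 1 captured RNA molecule) of the nuclei that were kept. The rule takes genes by symbol and uses no measured value, although the list was drawn up with earlier results of these data known. Nuclei of the kidney cortex of female mice were profiled by droplet-based 3' RNA sequencing, with 1 library for each of 4 groups: MRL/lpr at 6 weeks, C57BL/6 at 6 weeks, MRL/lpr at 10 weeks and C57BL/6 at 10 weeks. MRL/lpr mice carry the lpr mutation of the death receptor gene Fas on the MRL background and develop a lupus-like disease with nephritis, and C57BL/6 mice served as the comparison strain. A group of MRL mice with working Fas is not among the 4, so a ratio between strains mixes the mutation, the MRL background and disease, which cannot be told apart. The labels do not say how many mice went into a library. Since each group has 1 library, no test was made, intervals are 95% intervals that cover counting error only, and every ratio compares libraries.

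Type I interferons bind a receptor of 2 chains, Ifnar1 and Ifnar2, on nearly all cells. The receptor's kinases Jak1 and Tyk2 then activate Stat2, which acts with Irf9 to switch on target genes through a short DNA element in their promoters. The targets include sensors of foreign RNA, enzymes that block the replication of viruses, and the transcription factors that carry the response further. A raised level of these genes in blood cells and kidney is a known feature of lupus, and endothelium, immune cells and tubule epithelium can all respond.

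The libraries held between 9365 and 10182 barcodes, of which 8663, 9135, 9027 and 8822 were kept after filtering (a run of 4 values follows the order MRL/lpr 6 weeks, C57BL/6 6 weeks, MRL/lpr 10 weeks, C57BL/6 10 weeks throughout). Kept nuclei held a median of 692, 561, 626 and 568 UMIs, so most nuclei held no UMI of any given member, and levels are given as UMIs summed over the nuclei of a class per 1000000 UMIs of the same nuclei (CPM). Nuclei were put in classes by raw UMIs of marker genes, none of which is a member, and 10 classes with enough nuclei in every library are described. Classes of T and NK cells, B and plasma cells, plasmacytoid dendritic cells and neutrophils were also marked but are not described. The proximal tubule class held 5358, 3910, 5328 and 4129 nuclei, and the endothelium class 316, 1275, 492 and 823. Endothelium markers summed to 25838, 28863, 26855 and 30081 CPM in the endothelium class and to 204, 215, 115 and 201 CPM in the proximal tubule class. The classes were set by these same markers, so this gap follows from the rule and is no check of the labels. The lowest UMI number of a barcode differed between libraries, at 308, 209, 175 and 228, and between 112 and 143 cell barcodes were shared by each pair of libraries.

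Promoters of 22 of the 32 members were found in the RefSeq table for the GRCm38.p6 build, which is C57BL/6 sequence from 250 bases before to 50 bases after the start site; the sequence of MRL/lpr was not used here. A word of 10 bases (GAAA, 2 bases of any kind, GAAA), the core of the element bound by the complex that holds Stat2 and Irf9, was searched on both strands. It was found in the promoters of 14 of the 22 members (63.6%), beside 3.99% of all 27025 genes in the table and 3.44% of its 32851 promoters; the 22 members have 25 promoters. The 14 were Ifit1, Ifit3, Ifit3b, Isg15, Oas1a, Oas3, Rsad2, Stat2, Bst2, Ddx58, Ifih1, Trim30a, Ddx60 and Eif2ak2. The 8 without a match were Ifit2, Irf7, Oasl2, Ifi44, Xaf1, Cmpk2, Herc6 and Sp100, and Oas2, Mx1, Mx2, Usp18, Rtp4, Zbp1, Parp14, Ifi27, Ifi27l2a and Dhx58 were not matched to the table. A match is a description of letters and not a measured site. The promoters of 6 members on which the results below turn are shown, 5′ to 3′ in the direction of transcription, with matches on either strand in capitals. Rsad2 (minus strand) and Cmpk2 (plus strand) are neighbours read in opposite directions, Bst2 and Stat2 were higher in MRL/lpr proximal tubule, Ifih1 was lower there, and Isg15 holds 3 overlapping matches:
Rsad2: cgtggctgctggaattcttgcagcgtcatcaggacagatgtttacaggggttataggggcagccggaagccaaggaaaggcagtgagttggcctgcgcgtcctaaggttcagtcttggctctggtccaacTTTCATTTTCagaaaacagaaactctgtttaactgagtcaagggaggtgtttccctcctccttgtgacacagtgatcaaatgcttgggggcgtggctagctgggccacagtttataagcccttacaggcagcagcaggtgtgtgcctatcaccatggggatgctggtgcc
Cmpk2: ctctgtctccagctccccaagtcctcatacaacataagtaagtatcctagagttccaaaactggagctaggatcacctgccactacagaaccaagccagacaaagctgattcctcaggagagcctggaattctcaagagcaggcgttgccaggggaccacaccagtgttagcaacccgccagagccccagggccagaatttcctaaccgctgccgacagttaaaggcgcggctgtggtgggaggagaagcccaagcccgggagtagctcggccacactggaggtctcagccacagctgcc
Bst2: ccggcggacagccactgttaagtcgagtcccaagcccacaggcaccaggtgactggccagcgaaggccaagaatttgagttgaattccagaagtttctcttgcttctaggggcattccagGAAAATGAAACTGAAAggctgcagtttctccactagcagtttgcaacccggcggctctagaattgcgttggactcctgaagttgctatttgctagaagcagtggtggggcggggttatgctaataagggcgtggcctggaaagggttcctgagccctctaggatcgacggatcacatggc
Stat2: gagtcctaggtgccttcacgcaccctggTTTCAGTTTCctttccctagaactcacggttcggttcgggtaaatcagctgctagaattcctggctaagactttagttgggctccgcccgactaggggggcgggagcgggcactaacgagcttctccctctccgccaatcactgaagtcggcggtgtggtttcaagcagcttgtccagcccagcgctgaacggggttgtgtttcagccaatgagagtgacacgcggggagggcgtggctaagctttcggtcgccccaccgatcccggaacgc
Ifih1: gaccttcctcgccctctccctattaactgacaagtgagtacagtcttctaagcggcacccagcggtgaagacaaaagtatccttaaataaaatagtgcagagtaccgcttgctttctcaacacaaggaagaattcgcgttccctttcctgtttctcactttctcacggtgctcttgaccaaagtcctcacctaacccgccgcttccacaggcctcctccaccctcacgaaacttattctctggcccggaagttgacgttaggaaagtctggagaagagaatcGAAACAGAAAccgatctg
Isg15: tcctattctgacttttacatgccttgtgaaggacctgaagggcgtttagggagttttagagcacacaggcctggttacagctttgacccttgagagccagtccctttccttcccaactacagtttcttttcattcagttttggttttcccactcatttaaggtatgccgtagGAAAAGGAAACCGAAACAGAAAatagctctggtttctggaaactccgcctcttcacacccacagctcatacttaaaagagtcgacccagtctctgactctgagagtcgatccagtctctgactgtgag
The windows lie at chr12:26456403-26456702 for Rsad2, chr12:26468965-26469264 for Cmpk2, chr8:71537423-71537722 (minus strand) for Bst2, chr10:128270248-128270547 (plus strand) for Stat2, chr2:62646206-62646505 (minus strand) for Ifih1 and chr4:156200769-156201068 (minus strand) for Isg15. Rsad2 and Cmpk2 carried 1 match and none.

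Over whole libraries the members were lower in MRL/lpr at 6 weeks and level at 10 weeks. Their summed level was 545.5, 723, 595 and 570 CPM, from 3575, 4179, 3471 and 3278 UMIs. MRL/lpr over C57BL/6, the strain ratio, came to 0.754 (0.721 to 0.789) in the younger and 1.045 (0.996 to 1.096) in the older mice, and these ratios share no library. Of the 32 members 27 had at least 50 UMIs over the 4 libraries, the minimum for a ratio of a single gene. At both ages Rsad2 passed 2-fold on the lower side in MRL/lpr, as did 2.44% of 13764 genes, and no member passed it on the higher side, against 2.17%. At 1.5-fold Sp100 joined Rsad2 on the lower side, beside 6.07% of genes, and the higher side again held no member, beside 4.53%. Summed over a whole library, fewer nuclei of a class and less RNA in each of them cannot be told apart.

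The libraries differed in their share of endothelium, the class in which the members stood highest among the 10 described. Summed members reached 5451, 5262, 4961 and 5112 CPM in endothelium against 357, 278, 382 and 289 CPM in proximal tubule. That is 15.2-fold (14.0 to 16.6), 18.9-fold (17.5 to 20.4), 13.0-fold (11.9 to 14.1) and 17.7-fold (16.3 to 19.2) higher in endothelium of the same library. Endothelium made up 3.65, 14.0, 5.45 and 9.33% of the kept nuclei and 2.04, 6.70, 2.73 and 4.49% of all UMIs, but held 20.3, 48.7, 22.7 and 40.3% of the member UMIs. Of the endothelium nuclei 0, 773, 280 and 463 held fewer than 300 UMIs, and no barcode of MRL/lpr at 6 weeks held fewer than 308. The endothelium share thus also depends on the lowest UMI number of a library, and its part in the differences was not tested. With every class given the same share of UMIs in all 4 libraries, the level was 628, 538, 632 and 535 CPM, and the strain ratio was 1.167 at 6 weeks and 1.183 at 10 weeks. When only nuclei of 308 UMIs or more were used in every library, the ratio was 1.073 and 1.154. The direction of the whole-library ratio at 6 weeks therefore depended on both settings, and levels within classes are given below.

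**Figure D1:**
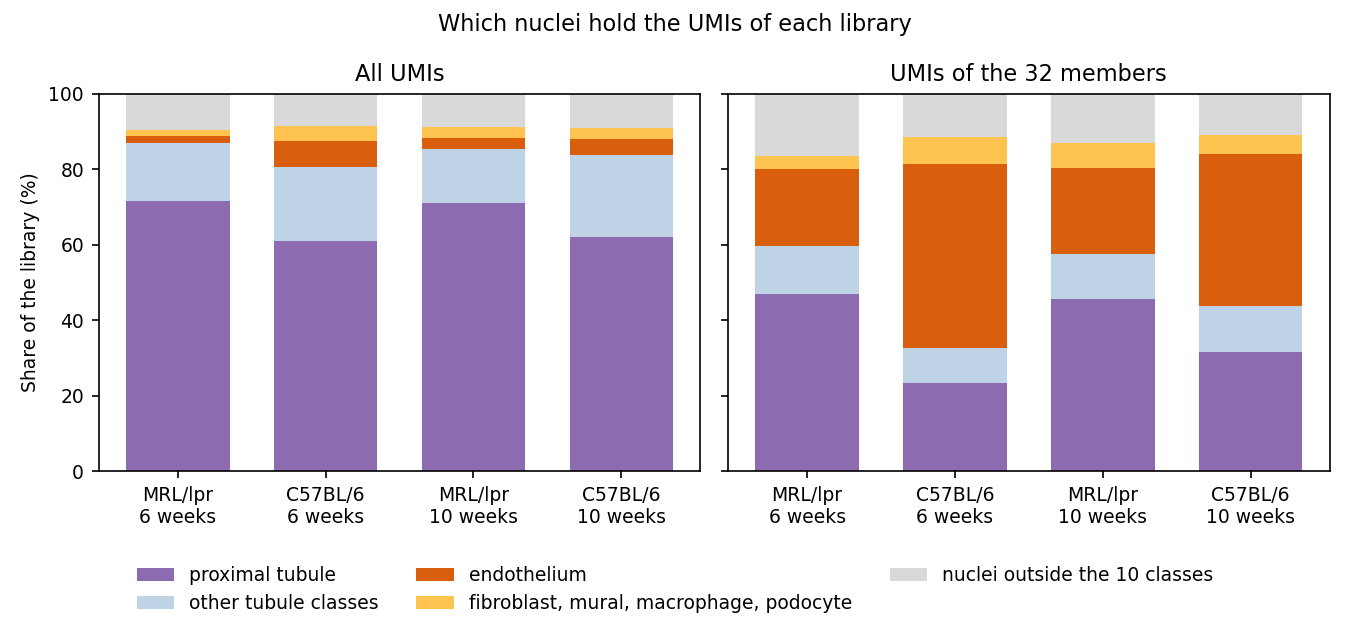
Share of all UMIs (left) and of the UMIs of the 32 members (right) held by each group of nuclei, in percent of a library, 1 bar per library. Endothelium held between 2.04 and 6.70% of all UMIs and between 20.3 and 48.7% of member UMIs, most in both C57BL/6 libraries. These shares also depend on the lowest UMI number of a barcode, which differed between libraries.

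Below endothelium, macrophage nuclei reached 2640, 2841, 2181 and 2228 CPM and fibroblast nuclei 2158, 1716, 2262 and 1670 CPM. Their intervals overlapped in 3 of the 4 libraries and not in C57BL/6 at 6 weeks, where macrophage nuclei stood higher. Mural nuclei lay at 1646, 1005, 1222 and 1643 CPM, from only 10 to 18 member UMIs per library. Podocytes and the tubule classes lay lower, between 278 and 643 CPM, in an order that differed between libraries. The macrophage and fibroblast levels rested on 34 to 216 member UMIs per library, and neither class differed between strains beyond its interval.

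**Figure D2:**
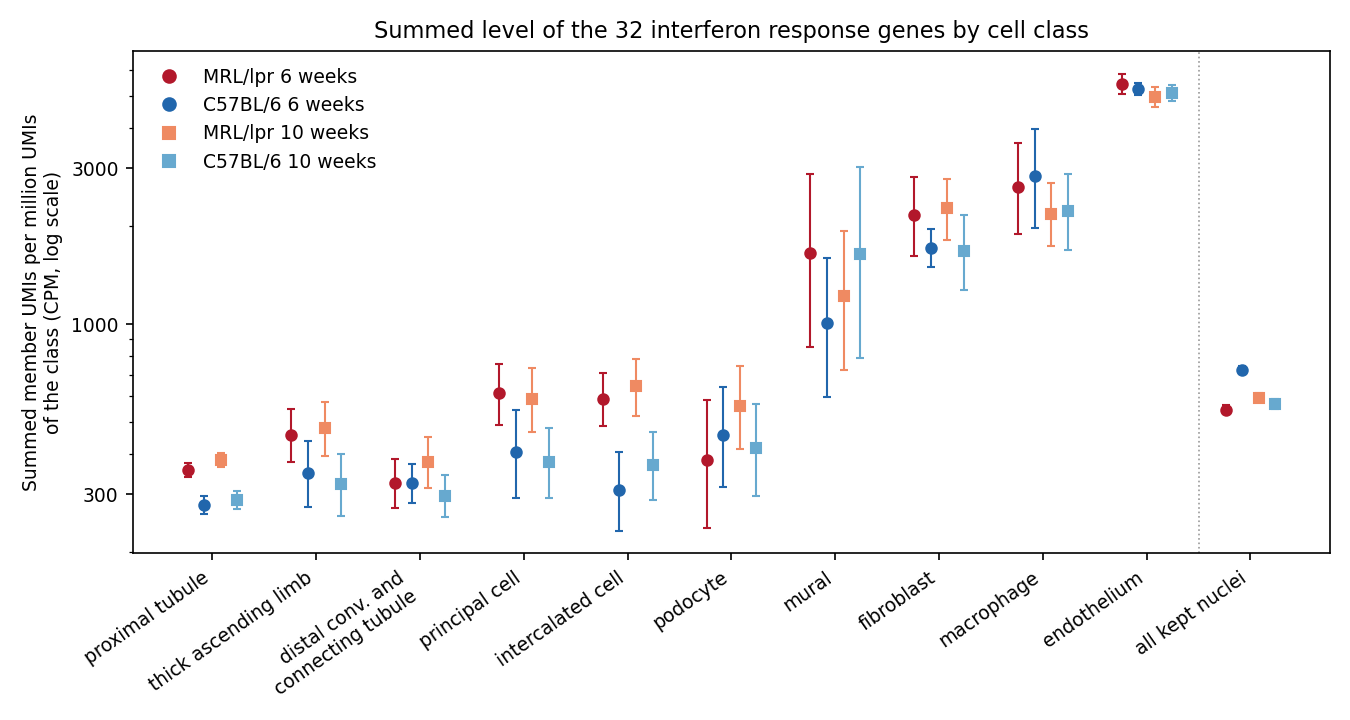
Summed CPM of the 32 members (log scale) in 10 cell classes and in all kept nuclei, 1 point per library with its exact Poisson 95% interval. Endothelium lies between 4961 and 5451 CPM in all libraries, and both MRL/lpr libraries lie above both C57BL/6 libraries in proximal tubule.

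Within the proximal tubule, the epithelium that reabsorbs most of the filtrate, the summed members stood higher in both MRL/lpr libraries. The class gave 1676, 978, 1581 and 1033 member UMIs. At 6 weeks MRL/lpr stood at 1.285 times (1.187 to 1.392) the C57BL/6 level, and at 10 weeks at 1.323 times (1.222 to 1.432). The ratio of 10 over 6 weeks was 1.069 (0.998 to 1.146) in MRL/lpr and 1.039 (0.951 to 1.135) in C57BL/6. Both MRL/lpr libraries thus lay above both C57BL/6 libraries. The intervals of the age ratios lie below those of the strain ratios, but this order depended on the setting. With the members with most UMIs left out, the age ratios were 1.25 in MRL/lpr and 1.22 in C57BL/6. Both values lie inside the strain interval at 6 weeks given above. With marked doublets kept, the strain ratios were 1.18 (1.10 to 1.27) at 6 weeks and 1.27 (1.18 to 1.36) at 10 weeks. The interval at 6 weeks then overlaps the age intervals given above, which are without marked doublets.

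Of the 32 members 17 had at least 50 UMIs in proximal tubule. Their median strain ratio was 1.14 at 6 weeks and 1.19 at 10 weeks, beside 0.994 and 1.04 over all 12001 genes compared in the class. Bst2 and Oasl2 passed 2-fold on the higher side in MRL/lpr at both ages, as did 2.56% of the genes compared, and no member passed it on the lower side, against 1.69%. At 1.5-fold the members were Bst2, Ddx60, Herc6, Oasl2, Parp14 and Stat2 on the higher side, 6 of 17 beside 5.42% of genes, and Ifih1 and Xaf1 on the lower side, 2 of 17 beside 4.27%. With doublets kept, Oasl2 had a ratio of 1.37 at 6 weeks and Ddx60 of 0.975 at 10 weeks, so neither passed 1.5-fold at both ages. Without the 1 proximal tubule nucleus richest in member UMIs in each library Ddx60 had a ratio of 1.23 at 10 weeks, again under 1.5-fold. With doublets kept Bst2 missed 2-fold at 10 weeks with 1.995.

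**Figure D3:**
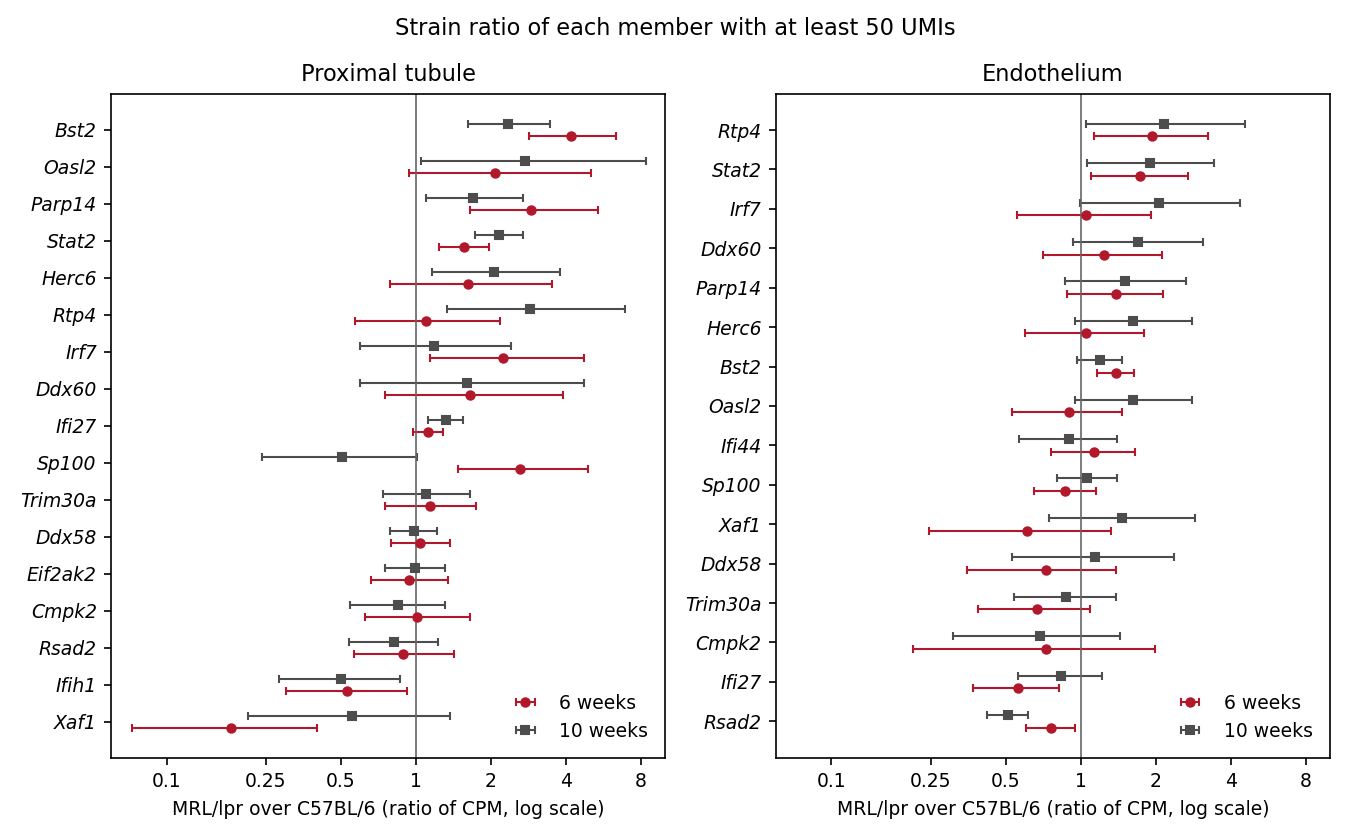
Ratio of MRL/lpr over C57BL/6 (log scale) for each member with at least 50 UMIs in proximal tubule (left) and endothelium (right), at 6 weeks (circles) and 10 weeks (squares), with 95% intervals of counting error. Bst2 stands at 4.19 and 2.36 in proximal tubule, and Rsad2 at 0.76 and 0.51 in endothelium.

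Among the transcription factors, Stat2, the subunit that gives the interferon-activated complex its activation domain, was higher in MRL/lpr at both ages. It had 231, 111, 299 and 120 UMIs in proximal tubule, or 49.3, 31.6, 72.3 and 33.6 CPM. MRL/lpr over C57BL/6 came to 1.56 (1.24 to 1.98) in the younger mice and 2.15 (1.74 to 2.68) in the older. The ratio of 10 over 6 weeks for Stat2 was 1.47 (1.23 to 1.75) in MRL/lpr and 1.06 (0.814 to 1.39) in C57BL/6. Irf9, the DNA-binding partner of Stat2, named after its values were seen, lay at 20.9, 16.5, 24.9 and 15.1 CPM, a strain ratio of 1.27 (0.907 to 1.78) and 1.65 (1.18 to 2.34). Irf7, the factor that amplifies interferon production, had 36, 12, 22 and 16 UMIs, with ratios of 2.25 (1.14 to 4.75) and 1.19 (0.596 to 2.42).

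Bst2, which encodes tetherin, a membrane protein that holds budding virus at the cell surface, stood farthest apart among the antiviral effectors at 6 weeks. It had 173, 31, 109 and 40 UMIs in proximal tubule, or 36.9, 8.82, 26.3 and 11.2 CPM, with ratios of 4.19 (2.84 to 6.35) and 2.36 (1.63 to 3.47). With doublets kept the ratio at 6 weeks was 2.43 (1.84 to 3.25), over 1.5 times smaller. In intercalated cells Bst2 lay at 89.8, 22.9, 146 and 36.4 CPM, with ratios of 3.92 (1.29 to 15.9) and 4.03 (1.67 to 11.1). In the thick ascending limb it lay at 96.5, 46.6, 86.4 and 30.5 CPM, with ratios of 2.07 (0.953 to 4.85) and 2.83 (1.20 to 7.44). Parp14, an ADP-ribosyltransferase gene, had 62, 16, 63 and 32 UMIs in proximal tubule and ratios of 2.91 (1.66 to 5.40) and 1.70 (1.10 to 2.69). Sp100, which encodes a component of nuclear bodies, had 56, 16, 14 and 24 UMIs and pointed in opposite directions, with 2.62 (1.48 to 4.90) at 6 weeks and 0.504 (0.241 to 1.02) at 10 weeks. The ratio of Sp100 at 6 weeks was 1.32 with doublets kept.

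Among the other effectors Rsad2, Cmpk2 and Trim30a showed no strain difference beyond counting error in this class. Rsad2, which encodes viperin, an enzyme that makes a chain-ending nucleotide, had 44, 37, 49 and 52 UMIs, and its neighbour Cmpk2, a nucleotide kinase gene, 43, 32, 44 and 45. Their strain ratios lay between 0.815 and 1.01, with every interval spanning 1. In MRL/lpr at 10 weeks 1 nucleus held 10 of the Rsad2 and 4 of the Cmpk2 UMIs. The Rsad2 ratio at 10 weeks without the richest nuclei was lower and is given below. Trim30a, of the TRIM family of ubiquitin ligases, lay at 13.0, 11.4, 14.5 and 13.1 CPM. Rtp4, an interferon-induced gene, had 25, 17, 30 and 9 UMIs, with ratios of 1.10 (0.572 to 2.18) and 2.88 (1.33 to 6.90).

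The RNA sensors differed among themselves. Ddx58, which encodes RIG-I, had 135, 97, 185 and 163 UMIs in proximal tubule, at 28.8, 27.6, 44.7 and 45.6 CPM. It showed no strain difference beyond counting error, with 1.04 (0.798 to 1.37) and 0.981 (0.791 to 1.22). It was higher in the older mice, 1.55-fold (1.24 to 1.95) in MRL/lpr and 1.65-fold (1.28 to 2.15) in C57BL/6. Eif2ak2, which encodes PKR, a kinase that stops translation on double-stranded RNA, followed the same course with 74, 59, 117 and 102 UMIs: 1.79-fold (1.33 to 2.43) and 1.70-fold (1.22 to 2.38) higher at 10 weeks, and strain ratios of 0.941 (0.659 to 1.35) and 0.992 (0.754 to 1.31). They were the members at least 1.5-fold higher at 10 weeks in both strains, 2 of 17 beside 1.33% of genes, and no member was 1.5-fold lower in both, against 0.95%. Ifih1, which encodes the sensor MDA5 of long double-stranded RNA, was instead lower in MRL/lpr at both ages, with 24, 34, 22 and 38 UMIs and ratios of 0.529 (0.300 to 0.919) and 0.5005 (0.282 to 0.868). Ddx60, a helicase gene, had 22, 10, 13 and 7 UMIs, and Dhx58, which encodes LGP2, 5, 3, 4 and 2.

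Of the ISG15 system, Herc6, the mouse ligase that joins ISG15 to proteins, had 26, 12, 43 and 18 UMIs in proximal tubule and ratios of 1.62 (0.791 to 3.53) and 2.07 (1.17 to 3.80). Usp18, which removes ISG15 and restrains the receptor, had 15, 6, 15 and 4 UMIs, and Isg15 itself 7, 6, 6 and 2. Of the oligoadenylate synthetase family, whose products activate RNase L, Oasl2 had 25, 9, 19 and 6 UMIs, with ratios of 2.08 (0.941 to 5.07) and 2.74 (1.05 to 8.37). Oas1a, Oas2 and Oas3 had 4, 15 and 2 UMIs over the 4 libraries together. The Ifit genes, whose proteins bind foreign RNA ends, were sparse: Ifit1, Ifit2, Ifit3 and Ifit3b had between 20 and 42 UMIs over the 4 libraries, and Ifit3 and Ifit3b are close copies whose counts may be split.

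Ifi27, which encodes a small membrane protein of mitochondria, was the member with most UMIs in proximal tubule. It had 523, 350, 389 and 255 UMIs, at 112, 99.5, 94.0 and 71.3 CPM, with strain ratios of 1.12 (0.977 to 1.29) and 1.32 (1.12 to 1.55). Its level at 10 weeks was 0.843 (0.737 to 0.963) of that at 6 weeks in MRL/lpr and 0.716 (0.607 to 0.844) in C57BL/6. Ifi27l2a, its neighbour with an overlapping gene model in RefSeq, had 14, 7, 3 and 1 UMIs, and counts of this pair may be mixed. Xaf1, which encodes a factor linked to apoptosis, was lower in MRL/lpr, with 8, 33, 9 and 14 UMIs and ratios of 0.182 (0.0725 to 0.401) and 0.556 (0.212 to 1.38). Ifi44, Mx2, Mx1 and Zbp1 had 38, 35, 2 and 3 UMIs in this class over the 4 libraries, and Mx1 and Oas3 had 6 and 3 in all kept nuclei.

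RNA from endothelium was present at a low level in the proximal tubule class, and its part in the values above was not tested. Per 100 UMIs of endothelium markers, proximal tubule held 175, 129, 334 and 144 member UMIs, against 21.1, 18.2, 18.5 and 17.0 in endothelium. For Stat2 the values were 24.2, 14.7, 63.1 and 16.7 in proximal tubule and 0.987, 0.510, 0.656 and 0.309 in endothelium. Bst2 stood at 18.1, 4.10, 23.0 and 5.56 in proximal tubule beside 6.07, 3.93, 3.86 and 2.89 in endothelium, and Rsad2 at 4.60, 4.89, 10.3 and 7.23 beside 2.90, 3.43, 3.35 and 5.86. The proximal tubule values thus lay far above those of endothelium for Stat2 and nearer to them for Rsad2 and Bst2. For Rsad2 and Bst2 they lay nearer in C57BL/6 than in MRL/lpr of the same age.

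Endothelium, the lining of the vessels, showed no strain difference beyond counting error in the summed members. The class gave 727, 2037, 789 and 1322 member UMIs, and MRL/lpr over C57BL/6 came to 1.036 (0.951 to 1.128) at 6 weeks, and at 10 weeks to 0.970 (0.887 to 1.061). Its 16 members with at least 50 UMIs had median ratios of 0.977 and 1.33, beside 0.968 and 0.976 over 4334 genes. At both ages no member passed 2-fold on the higher side, against 0.992% of genes, or on the lower side, against 1.45%. At 1.5-fold Rtp4 and Stat2 were higher at both ages, 2 of 16 beside 3.65%, and no member was lower, against 5.1%.

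The level sum in endothelium held members that pointed in opposite directions. Rsad2 had 100, 383, 143 and 456 UMIs there, at 750, 989, 899 and 1763 CPM, the highest of any member in C57BL/6 at 10 weeks. It was lower in MRL/lpr, with ratios of 0.758 (0.602 to 0.947) at 6 weeks and 0.510 (0.420 to 0.617) at 10 weeks. In C57BL/6 it was 1.78-fold (1.55 to 2.05) higher at 10 than at 6 weeks, and in MRL/lpr 1.20-fold (0.922 to 1.56). Cmpk2 had 5, 20, 11 and 26 UMIs, with strain ratios of 0.726 (0.213 to 1.99) and 0.688 (0.307 to 1.44), and was 1.95-fold (1.04 to 3.68) higher at 10 weeks in C57BL/6. Over nuclei of 308 UMIs or more in every library, Rsad2 had strain ratios of 0.939 (0.717 to 1.22) and 0.450 (0.332 to 0.604), so the difference at 6 weeks was then within counting error. Without Rsad2, a sum chosen after the values were seen, the members' ratio in endothelium was 1.10 (1.00 to 1.21) at 6 weeks, and at 10 weeks 1.21 (1.09 to 1.34).

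Rsad2 also had the largest share of its UMIs in endothelium, with the 4 libraries pooled. Of its UMIs in all kept nuclei 75.5% lay in that class. Ifi44 followed with 71.8%, Zbp1 with 62.2% of only 37 UMIs, Sp100 with 55.4% and Bst2 with 52.9%. By CPM of endothelium over proximal tubule, Ifi44 stood above Rsad2 in MRL/lpr at 6 and 10 weeks, at 137 and 104 against 79.9 and 75.9. Sp100 stood above it in C57BL/6 at 6 weeks, at 123 against 94.0, and in MRL/lpr at 10 weeks, at 162. In C57BL/6 at 10 weeks Rsad2 stood at 121, beside 115 for Ifi44 and 76.6 for Sp100. Eif2ak2, Ddx58, Stat2 and Ifi27 had between 5.27 and 11.8% there, with 55.6 to 61.9% of their UMIs in proximal tubule. In endothelium with a UMI of Plvap, a marker of fenestrated capillaries outside the glomerulus, Rsad2 lay at 720, 880, 900 and 1772 CPM, and in endothelium without one at 822, 1209.6, 898 and 1743 CPM. At this depth nuclei without a Plvap UMI can still be of that kind, so the split does not separate types of endothelium.

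Stat2 was higher in MRL/lpr endothelium too, and Bst2 was so beyond counting error at 6 weeks only. Bst2 had 209, 439, 165 and 225 UMIs, at 1567, 1134, 1037 and 870 CPM, with ratios of 1.38 (1.17 to 1.63) and 1.19 (0.969 to 1.46). Stat2 had 34, 57, 28 and 24 UMIs, with ratios of 1.73 (1.10 to 2.69) and 1.90 (1.06 to 3.42), and Rtp4 26, 39, 20 and 15, with ratios of 1.94 (1.13 to 3.26) and 2.17 (1.06 to 4.55). Bst2 at 10 weeks stood at 0.662 (0.537 to 0.816) of its 6-week level in MRL/lpr and at 0.767 (0.650 to 0.903) in C57BL/6. Ifi27 was lower in MRL/lpr endothelium at 6 weeks, with 240, 429, 264 and 317 CPM and a ratio of 0.560 (0.371 to 0.821) beside 1.12 in proximal tubule. In C57BL/6 endothelium 14 of the 16 members were lower at 10 than at 6 weeks, with a median ratio of 0.753 beside 0.989 over all genes. The 2 that were higher were Rsad2 and Cmpk2, beside 48.2% of the 4334 genes. In MRL/lpr 8 were lower and 8 higher, beside 49.6% of genes higher. At 1.5-fold in both strains Cmpk2 passed on the higher side with age, beside 1.62% of genes, and Rtp4 on the lower side, beside 1.94%.

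**Figure D4:**
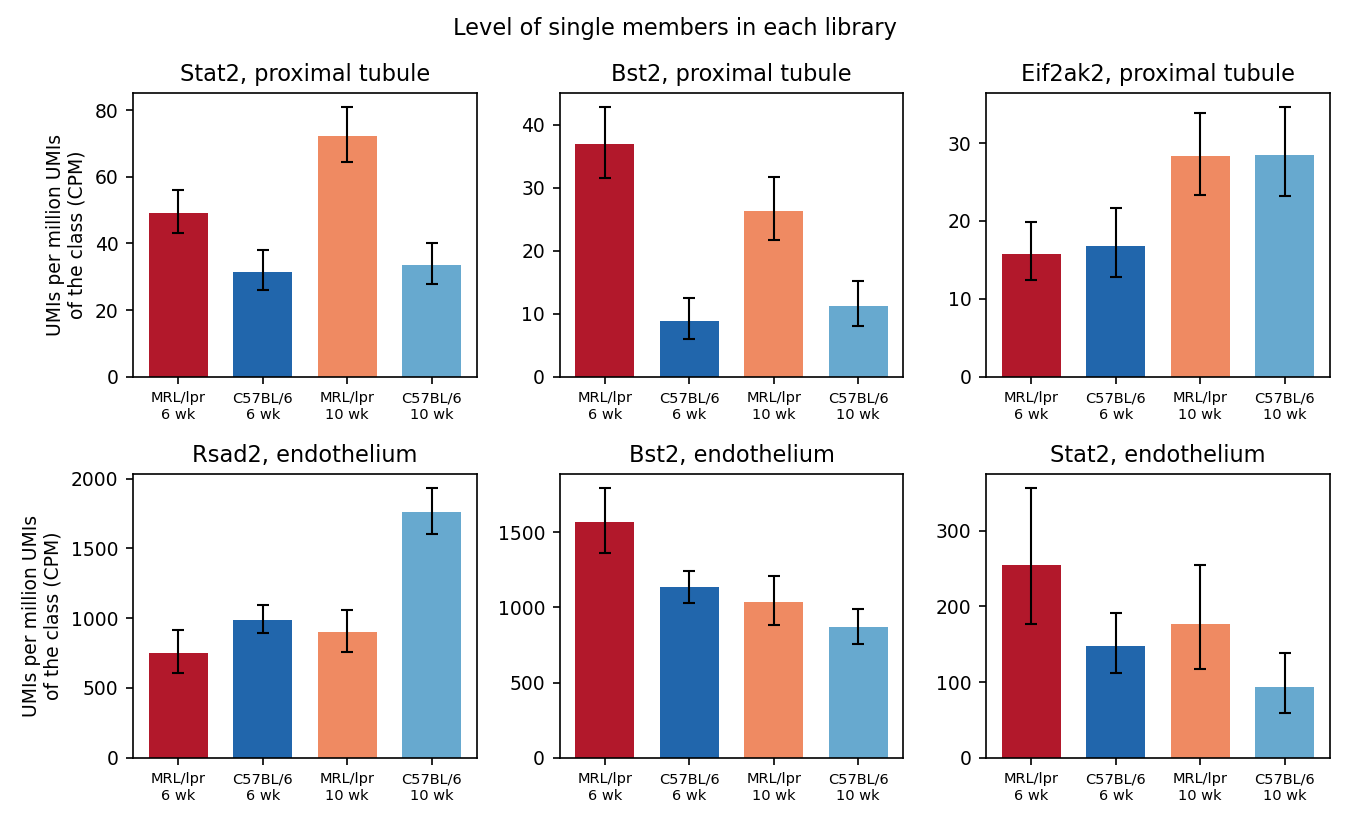
CPM of Stat2, Bst2 and Eif2ak2 in proximal tubule (top) and of Rsad2, Bst2 and Stat2 in endothelium (bottom), 1 bar per library with its exact Poisson 95% interval. Eif2ak2 stands apart by age, at 15.8 and 16.8 CPM against 28.3 and 28.5, and Rsad2 is highest in C57BL/6 at 10 weeks with 1763 CPM.

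In the other tubule classes the summed members were mostly higher in MRL/lpr. Intercalated cells, the acid-base cells of the collecting duct, lay at 589, 309, 643 and 369 CPM, with ratios of 1.90 (1.37 to 2.68) and 1.74 (1.27 to 2.40). Principal cells, which take up water and sodium, lay at 612, 404, 589 and 377 CPM, with 1.52 (1.04 to 2.24) and 1.56 (1.11 to 2.20). The thick ascending limb lay at 458, 350, 479 and 324 CPM, with 1.31 (0.970 to 1.78) and 1.48 (1.11 to 1.99), and at 6 weeks its ratio was 0.944 with doublets kept. Over the alternatives its lowest ratio at 10 weeks was 1.11. The lowest ratios at 6 and 10 weeks were 1.58 and 1.40 in intercalated cells and 1.19 and 1.34 in principal cells. The part of endothelium RNA in these classes was not tested. The distal convoluted and connecting tubule lay at 326, 325, 378 and 297 CPM, with 1.00 (0.803 to 1.25) and 1.27 (1.00 to 1.61). Podocytes lay at 381, 457, 560 and 416 CPM from 21 to 48 UMIs per library, with ratios of 0.834 (0.460 to 1.48) and 1.34 (0.865 to 2.10). Without the 2 members with most UMIs the podocyte ratio at 10 weeks was 2.24 (1.17 to 4.48), the highest of alternatives that reached down to 1.22. At 6 weeks the podocyte alternatives all lay below 1, from 0.628 to 0.862.

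The genes upstream of the members showed ligands at or near 0 apart from Ifnk. No UMI of Ifnb1, Ifna1, Ifna2, Ifna4, Ifna5 or Ifnz was found in any kept nucleus, and Ifne had 1. The interferon kappa gene Ifnk gave 138, 0, 117 and 0 UMIs in proximal tubule. By the exact lower limit of the ratio, the MRL/lpr level stood at least 27.7-fold higher in the younger and at least 27.0-fold higher in the older mice. This was not particular to proximal tubule. The summed ligands in MRL/lpr at 6 and 10 weeks lay at 29.4 and 28.3 CPM there and at 49.3 and 52.2 CPM in principal cells. They lay at 38.9 and 34.1 CPM in distal convoluted and connecting tubule, 20.1 and 47.5 in thick ascending limb, and 24.9 and 12.7 in intercalated cells. Outside proximal tubule these levels rested on few UMIs, so classes and ages are not ranked by them. Principal cells gave 7 and 7 UMIs, distal convoluted and connecting tubule 16 and 11, thick ascending limb 5 and 11, and intercalated cells 5 and 2. C57BL/6 gave 1 and 1 in distal convoluted and connecting tubule and 0 in the other tubule classes. In proximal tubule the receptor chain gene Ifnar2 passed 1.5-fold at each age on the higher side, with 1.68 (1.28 to 2.22) and 1.52 (1.17 to 1.99). Ifnar1, the other chain, lay at 38.2, 32.1, 35.1 and 31.9 CPM. Of 10 genes of sensing upstream of the ligands, Ikbke, a kinase gene of that path, was lower, with 0.585 (0.357 to 0.952) and 0.576 (0.357 to 0.920). Il10rb, a chain shared by the receptors for interleukin 10 and interferon lambda, was higher, with 1.69 (1.33 to 2.16) and 2.07 (1.58 to 2.75). Ifnar2, Ikbke and Il10rb were named because they passed 1.5-fold at both ages. Of all 12001 genes compared in the class 5.42% did so on the higher side and 4.27% on the lower.

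The IRG and GBP GTPases, which are induced most by interferon gamma, stood farther apart between strains than the members did. Their summed level in proximal tubule was 139, 42.9, 273 and 71.0 CPM, with ratios of 3.24 (2.71 to 3.89) and 3.84 (3.35 to 4.42), intervals that lie above those of the summed members. Of the 15 genes 7 had UMIs enough to be compared, and 5 of them passed 2-fold on the higher side at both ages, beside 2.56% of all genes compared in the class. The ratio of their summed level at 10 over 6 weeks was 1.96 (1.78 to 2.16) in MRL/lpr and 1.65 (1.35 to 2.04) in C57BL/6. For the summed members this age ratio was 1.07 and 1.04, but 1.25 and 1.22 without the 2 members with most UMIs. In endothelium the strain ratios of the IRG and GBP GTPases were 1.97 (1.60 to 2.42) and 1.58 (1.31 to 1.92).

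In proximal tubule 936, 674, 1000 and 706 nuclei held exactly 1 member UMI. With each nucleus thinned to 500 UMIs, and 332, 126, 544 and 366 shallower nuclei left out, 2.21% (1.82 to 2.65), 1.48% (1.12 to 1.92), 2.09% (1.70 to 2.54) and 1.12% (0.806 to 1.51) of them held 2 or more member UMIs, with exact binomial intervals. Between strains these shares had a ratio of 1.49 (1.07 to 2.10) at 6 weeks, and at 10 weeks of 1.87 (1.29 to 2.75). At 6 weeks the interval spanned 1 with doublets kept, 1.28 (0.939 to 1.75), and with nuclei thinned to 300 UMIs, 1.42 (0.841 to 2.46). It also spanned 1 for nuclei with 3 or more member UMIs, 1.76 (0.634 to 5.58), for which the value at 10 weeks was 2.36 (0.966 to 6.57). Without thinning the shares were 5.11, 3.48, 4.35 and 3.25%. The nucleus with most member UMIs held 14, 5, 34 and 9 of them. The one with 34, in MRL/lpr at 10 weeks, held 691 UMIs in all, so members made up 4.92% of its RNA. Of the 32 members 14 were seen in it, Rsad2 with 10 UMIs and Cmpk2 with 4, beside 10 UMIs of proximal tubule markers and 0 of endothelium markers, and the next nucleus of that library held 9. Without the richest nucleus of each library the Rsad2 ratio in proximal tubule at 10 weeks was 0.648 (0.417 to 1.00).

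Proximal tubule nuclei with 2 or more member UMIs also held more IRG and GBP UMIs. In proximal tubule nuclei with 0 member UMIs these genes lay at 96.8, 34.4, 182 and 59.9 CPM, with 1 at 167, 45.3, 346 and 72.1 CPM, and with 2 or more at 409, 196, 1260 and 243 CPM. In C57BL/6 the intervals for 0 and 1 overlapped, 27.8 to 42.1 and 30.4 to 65.1 CPM at 6 weeks and 51.1 to 69.8 and 53.2 to 95.6 CPM at 10 weeks. In endothelium the levels were 984, 579, 1081 and 718 CPM with 0 member UMIs, 1070.2, 466, 1323 and 705 CPM with 1, and 1314, 720.1, 1523 and 1042 CPM with 2 or more. The endothelium level with 1 thus lay below that with 0 in both C57BL/6 libraries. In proximal tubule median depth differed less than the IRG and GBP level did, from 735 to 850 UMIs in nuclei with 0 and from 849 to 975 in those with 2 or more. In endothelium it ran from 271 to 360 UMIs with 0 and from 291 to 374 with 2 or more. In proximal tubule the IRG and GBP level was higher in MRL/lpr than in C57BL/6 of the same age in each of the 3 groups of nuclei.

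**Figure D5:**
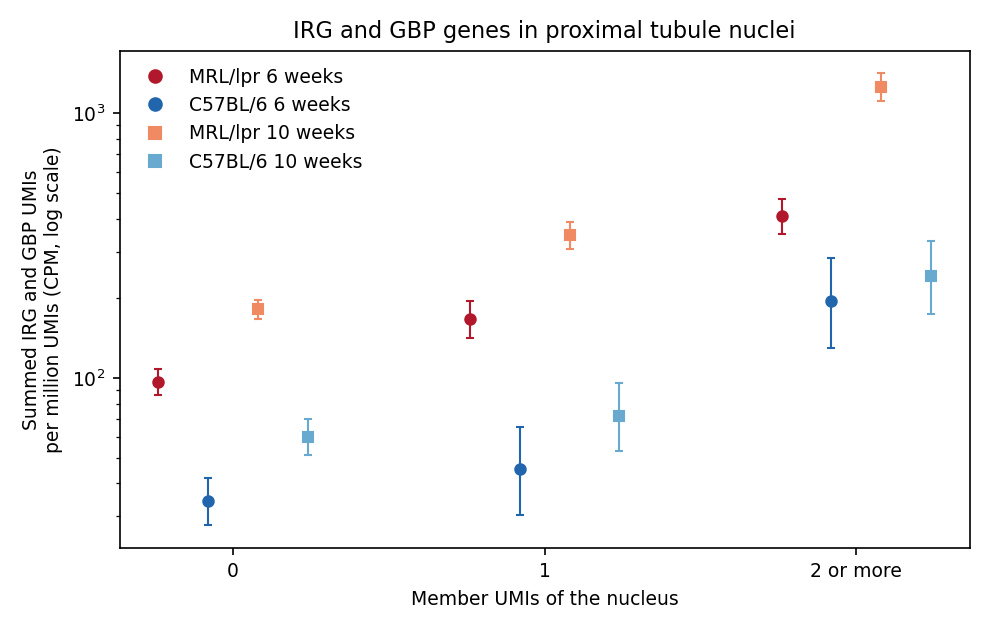
Summed CPM of IRG and GBP genes (log scale) in proximal tubule nuclei with 0, 1 and 2 or more member UMIs, 1 point per library with its exact Poisson 95% interval. Each library is highest in nuclei with 2 or more member UMIs, up to 1260 CPM in MRL/lpr at 10 weeks.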

How the data were processed

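Nuclei of kidney cortex from female MRL/lpr and C57BL/6 mice aged 6 or 10 weeks were profiled with a 10x Genomics 3' kit per the labels, 1 library per group. The authors deposited raw UMI counts of each barcode from Cell Ranger. Per the file headers its version was 5.0.0, but the submitters' processing notes name 3.1.0. Not given in the sources used here are the genome build and the treatment of intronic reads. The members and lists were chosen with earlier results of these data known.

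Barcodes with at least 200 genes and at most 10% mitochondrial UMIs were kept, and doublets were marked with Scrublet in scanpy 1.11.5 at 0.8% per 1000 barcodes. In MRL/lpr at 6 weeks its automatic threshold marked under 0.5%, so the nuclei with the highest scores were marked there up to the expected rate, unlike in the other libraries. In all 701, 875, 463 and 795 doublets were left out. The kept nuclei held 6553440, 5779370, 5834449 and 5755350 UMIs, 35647 nuclei together.

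A nucleus joined a class, by a rule chosen after the data were seen, if at least 2 different markers of it were detected and their UMIs were the most and at least 2 times those of every other class. Exactly 2 markers, the least allowed, were found in 759, 437, 701 and 464 proximal tubule and 3, 68, 23 and 26 endothelium nuclei. UMIs were summed per class and library. A ratio of CPM has a 95% interval from the exact conditional binomial, a level an exact Poisson interval and a share an exact binomial (Clopper-Pearson) interval; all cover counting error only. With 1 library per group no test was possible and p-values are not given. A member was compared singly where its UMIs in a class, added over the 4 libraries, reached 50, and a pathway gene was named if it also differed by 1.5-fold in 1 direction at both ages. A count of 0 was set to 3 UMIs in fold counts.

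Alternatives covered doublets, markers, UMI minimum, mitochondrial limit, the scaling factors of edgeR 4.0.16 (TMM) and DESeq2 1.42.0 (used for scaling alone), and leaving members out. The calculations, tested on simulated data, used Python 3.11.15, numpy 2.4.6, pandas 2.3.3, scipy 1.17.1, matplotlib 3.10.9 and R 4.3.3. The result for 1 pathway gene is not reported here.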

Additional observations from a re-analysis of the deposited data

Results flagged for a closer look

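Over all kept nuclei, 3 members had strain ratios whose intervals lay on opposite sides of 1 at the 2 ages; the difference between ages was not tested. Bst2 had 0.858 (0.763 to 0.964) at 6 weeks and 1.34 (1.17 to 1.55) at 10 weeks, Ddx60 0.691 (0.491 to 0.967) and 1.60 (1.07 to 2.41), and Ifi27 0.897 (0.811 to 0.993) and 1.195 (1.06 to 1.34). The summed members likewise had ratios of 10 over 6 weeks on opposite sides of 1 in the strains, 1.09 (1.04 to 1.14) in MRL/lpr and 0.788 (0.752 to 0.825) in C57BL/6, again with no test of the difference. Endothelium held 3.65, 14.0, 5.45 and 9.33% of the nuclei in the same libraries, and the part of that share in these ratios was not tested gene by gene.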

How the results depend on the processing

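No paired analysis was possible because each group had 1 library, and leaving out a replicate was not possible for the same reason. Of 1460 alternative values 1422 stayed within the interval of the reported one, 35 moved outside it, and 3 crossed 1 where the reported interval did not hold 1; the causes were not tested. Other ratios whose reported interval holds 1 also crossed 1 and are counted under the first groups. The main results include the summed ratios of all kept nuclei, proximal tubule and endothelium. Of their alternatives 131 stayed, 24 moved and 3 crossed 1 in this way. Among the remaining alternatives, for single members and other classes for the most part, 1291 stayed and 11 moved. The alternatives without Rsad2, without the nucleus richest in members, with a common class makeup and for single members were chosen after seeing the data.

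The whole-library strain ratio at 6 weeks changed direction to 1.073 over nuclei of 308 UMIs or more in every library and to 1.167 with a common class makeup. It was 0.716 with nuclei holding 3 or more proximal tubule markers left out of other classes, 0.792 with TMM, 0.795 with DESeq2 size factors, 0.694 without the 2 members with most UMIs and 0.805 without Rsad2. At 10 weeks it was 1.154 with the UMI minimum, 0.968 without the 2 top members, 1.178 without Rsad2 and 1.183 with a common makeup. The whole-library age ratio in MRL/lpr changed direction to 0.938 with the UMI minimum, and was 1.188 without the 2 top members and 1.007 with a common makeup. In C57BL/6 it was 0.873, 0.852 and 0.994 under these settings, and 0.735 without Rsad2.

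In proximal tubule the strain ratio at 6 weeks was 1.179 with doublets kept, and the age ratio without the 2 top members was 1.253 in MRL/lpr and 1.215 in C57BL/6. In endothelium the strain ratio at 10 weeks was 1.213 without Rsad2, and the age ratio in C57BL/6 was 1.061 without the 2 top members and 0.784 without Rsad2. The 2 members that passed 2-fold on the higher side in proximal tubule became 0 with doublets kept and 1 with at least 3 markers per nucleus, and the 0 on the lower side became 1 with doublets kept.

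Depth limits single genes: 15 of 32 members in proximal tubule and 16 in endothelium had under 50 UMIs.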
